A study of Homo sapiens with 12 samples.

Results

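The proteasome is the protease complex that breaks down ubiquitin-tagged proteins in every human cell, and its subunit genes are described here across 6 RNA sequencing libraries of PC-3M cells. The members were the protein-coding genes whose symbol starts with PSM, a letter from A to G and a digit. By that rule 49 genes with 82 transcript rows were found among 24359 genes of the PC-3M table, and the row with the highest mean stood for each gene. PSMC3IP matched by its symbol alone, since it encodes a recombination factor, so 48 genes were described as subunits, activators, inhibitor or assembly chaperones. PC-3M cells are a strongly metastatic subline of the human prostate cancer line PC-3. The 2 PC-3M groups were 3 libraries of cells treated with siRNA against KMT9a, encoded by N6AMT1 and known as a histone H4 methyltransferase, and 3 libraries of cells treated with control siRNA, all at passage 11. MCF10A, a non-tumorigenic breast epithelial cell line at passage 13, was sequenced with the same 2 treatments and 3 libraries each. The siRNA sequences, doses and treatment times, and whether several siRNAs were used, were not given in the sources used here. The libraries were labelled as biological replicates without saying whether cultures were separate, so a p-value here covers the spread among these libraries, which may be technical.

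The 20S core particle is a barrel of stacked rings, in which outer alpha rings control entry and inner beta rings hold the protease sites. The 19S regulatory particle sits on the barrel's ends, recognises ubiquitin, removes it and feeds the unfolded substrate into the core with a ring of ATPases. In cells exposed to interferon, immunosubunits replace the constitutive catalytic subunits during assembly, which changes the peptides made for display on MHC class I, while other activators can cap the core in place of the 19S particle.

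Between 40236221 and 53401602 read ends fell in genes per PC-3M library, and the RNA of a whole culture was measured, so that fewer cells of a type and less RNA per cell cannot be told apart. Levels are given as CPM, counts scaled to a common library total and between libraries by the TMM method, and as CPM per kilobase of transcript where genes are compared with each other. A change was called at a Benjamini-Hochberg adjusted p under 0.05 over 14958 tested genes, by limma on log2 values. N6AMT1 itself had 3.01, 2.59 and 2.83 CPM in the KMT9a siRNA libraries, against 11.4, 12.0 and 11.0 CPM in the control siRNA libraries (log2 fold change -2.02 ± 0.11 (SE), adjusted p = 3.46e-09). Of the epithelial markers, KRT8, KRT18, CDH1 and EPCAM were detected in all 6 libraries, while the prostate marker HOXB13 was present and KLK3 lay at or near 0. These markers moved too: KRT8 and CDH1 were higher at 1.19 and 1.296, and EPCAM and HOXB13 were lower at -0.82 and -1.10 on the log2 scale. KRT18 was lower at -0.11, a call lost in several alternative fits, among them the replicate block (adjusted p = 0.112). Their part in the results was not tested. KMT9a siRNA replicate 2 stood apart from the other libraries of its group: over read pairs per gene, chi-square divided by its degrees of freedom was 11.6 and 14.1 against replicates 1 and 3, and 2.45 between those. Without that library, 12 proteasome genes were called higher and 26 lower, in place of 8 and 25.

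Most proteasome genes moved by less than 1.5-fold, and those called were more often lower than higher with KMT9a siRNA. Of the 48 genes, 45 were tested, the lowest of them PSMB8 with 79 to 103 read ends per control siRNA library, and 25 of them were called lower and 8 higher, while 12 did not pass. Those shares were 55.6% lower, against 37.2% of all tested genes, and 17.8% higher, against 37.3% of all tested genes. At a change of at least 1.5-fold, 6 were lower, where 22.1% of all tested genes were, and 2 were higher, where 23.0% were. The 2 groups did not overlap in 36 of the 45 genes, and in 77.0% of all tested genes. The change was under 1.5-fold in 37 of the 45 genes, and in 53.2% of all tested genes. The median log2 fold change of the 45 genes was -0.17, and that of all tested genes was 0.0029. Their median absolute log2 fold change was 0.25, against 0.54 over all tested genes, as the plot of the size of change shows. They were also abundant: the median control siRNA level was 67.8 CPM per kilobase over the 45 genes and 6.85 CPM per kilobase over all tested genes. With libraries scaled by their totals alone, the median of all genes moved to -0.17, with 4384 genes called higher and 6821 lower in place of 5580 and 5561. In that scaling 3 proteasome genes were called higher and 31 lower, so directions here are relative to the TMM scaling.

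**Figure D1:**
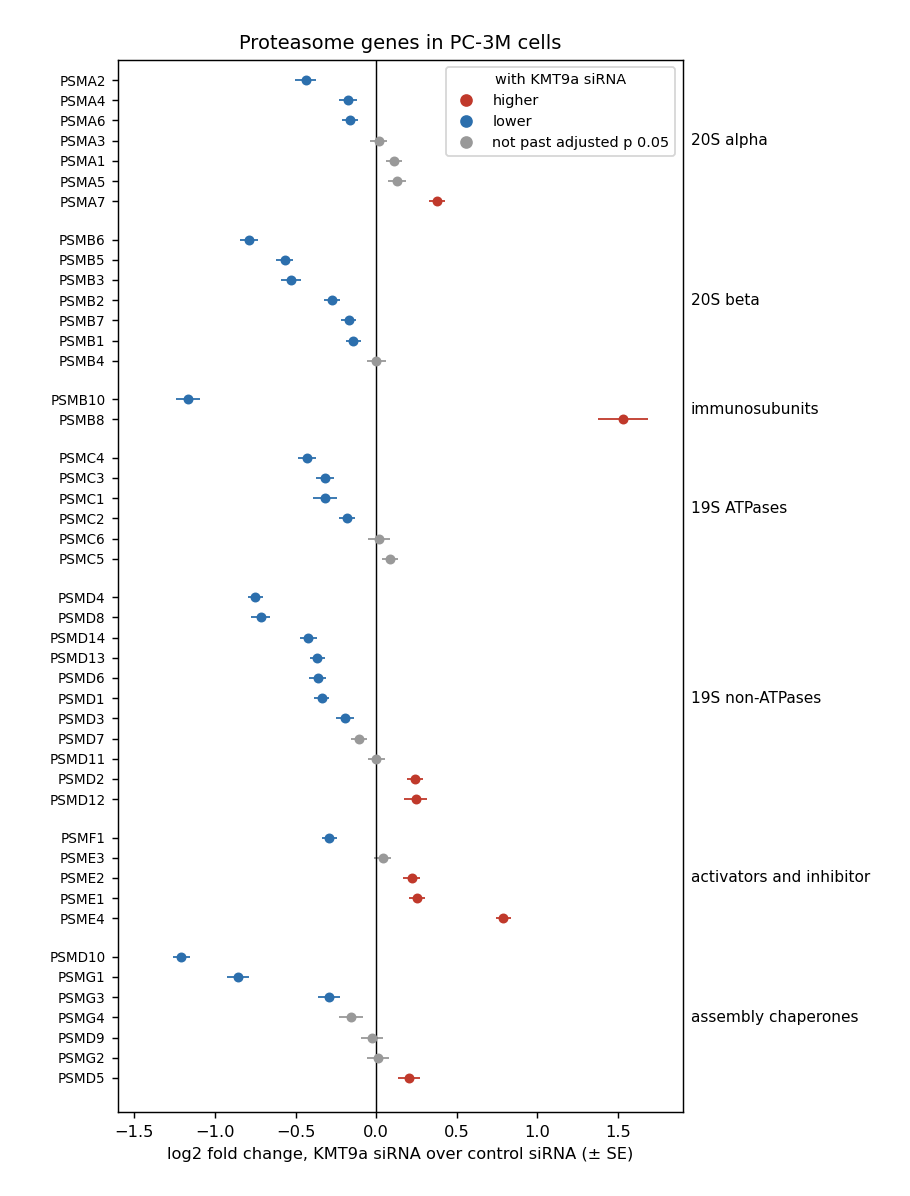
Log2 fold change, KMT9a siRNA over control siRNA, of the 45 tested proteasome genes in PC-3M cells, grouped by class; bars are standard errors (3 libraries per group) and colours mark genes called higher, called lower or not past adjusted p 0.05. The genes span -1.21 for PSMD10 to 1.53 for PSMB8, and 25 of 45 are called lower.

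**Figure D2:**
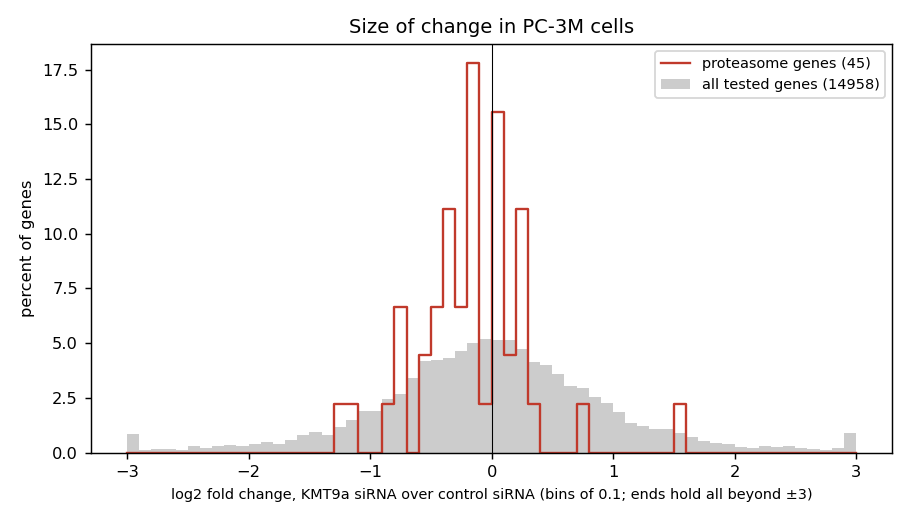
Share of genes, in percent, per bin of 0.1 in log2 fold change, KMT9a siRNA over control siRNA, for the 45 tested proteasome genes (line) and all 14958 tested genes (bars). The median absolute change is 0.25 for the proteasome genes and 0.54 for all tested genes.

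Among the alpha subunits, which form the outer rings and the gate of the core, 3 of the 7 tested genes were lower, 1 was higher and 3 did not pass. The share called lower, 42.9%, was near the 37.2% of all tested genes, and 14.3% were called higher, beside 37.3%. PSMA7 was the gene called higher, with 219, 240.2 and 222 CPM in the KMT9a siRNA libraries, against 175, 174 and 174 CPM in the control siRNA libraries. Its libraries did not overlap between the groups (log2 fold change 0.38 ± 0.050 (SE), adjusted p = 1.84e-05). PSMA2 had 96.2, 83.7 and 100.3 CPM with KMT9a siRNA, against 126, 129 and 123 CPM with control siRNA (log2 fold change -0.44 ± 0.066 (SE), adjusted p = 5.79e-05), and here too every KMT9a siRNA library lay below every control siRNA library. PSMA4 and PSMA6 were lower by a smaller margin, with log2 fold changes of -0.18 and -0.16. PSMA1, PSMA3 and PSMA5 did not pass, at log2 fold changes of 0.11, 0.015 and 0.13. Further transcript rows lay just past the threshold and were called higher, PSMA1 at 0.126 and PSMA5 at 0.138 and 0.148. The eighth gene, PSMA8, encodes a testis-specific counterpart of PSMA7 and had no read end in any of the 6 libraries, which allows up to 0.0530 to 0.0785 CPM per library at 3 read ends.

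The beta subunits, which include the constitutive proteases, were lower in 6 of 7 tested genes, none was called higher, and their median log2 fold change was -0.27. The share called lower was 85.7%, beside 37.2% of all tested genes. PSMB6, the caspase-like protease, had 77.9, 82.4 and 74.0 CPM in the KMT9a siRNA libraries, against 133, 139 and 132 CPM in the control siRNA libraries (log2 fold change -0.79 ± 0.055 (SE), adjusted p = 4.46e-08). PSMB5, the chymotrypsin-like protease that bortezomib targets, had 254, 287 and 264 CPM with KMT9a siRNA, against 402, 398 and 393 CPM with control siRNA (log2 fold change -0.57 ± 0.052 (SE), adjusted p = 6.03e-07). In both genes the groups were well apart, and PSMB6 was the only beta subunit past 1.5-fold. PSMB7, the trypsin-like protease, had 246, 255 and 245 CPM with KMT9a siRNA, against 281, 277 and 283 CPM with control siRNA (log2 fold change -0.17 ± 0.044 (SE), adjusted p = 0.00374), a smaller change than in the other proteases. PSMB3, a subunit without a protease site, had 53.8, 60.4 and 53.8 CPM with KMT9a siRNA, against 84.1, 77.1 and 81.3 CPM with control siRNA (log2 fold change -0.53 ± 0.063 (SE), adjusted p = 7.14e-06). PSMB2 and PSMB1, also without protease sites, were lower at log2 fold changes of -0.27 and -0.14. PSMB1 missed the threshold when control siRNA replicate 2 or 3 was left out, at -0.14 and -0.15. PSMB4 had 206, 239 and 213 CPM with KMT9a siRNA, against 218, 221 and 218 CPM with control siRNA, and its groups overlapped.

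The immunosubunits moved in opposite directions: PSMB8 was higher and PSMB10 lower, while PSMB9 and PSMB11 were too low to test. PSMB8, which takes the place of PSMB5, lies in the MHC region at chr6:32808494-32811816, minus strand (hg19, NM_148919). It had 4.91, 5.06 and 4.01 CPM in the KMT9a siRNA libraries, against 1.82, 1.46 and 1.47 CPM in the control siRNA libraries. All KMT9a siRNA libraries were above all control siRNA libraries (log2 fold change 1.53 ± 0.15 (SE), adjusted p = 1.39e-06), on 199, 227 and 153 read ends with KMT9a siRNA, against 103, 79 and 83 with control siRNA. The table counts PSMB8, PSMB9 and the neighbouring TAP1 and TAP2 at 8 annotated loci each, so their reads may have been split between copies or dropped, and the effect on their levels was not tested. PSMB10, which takes the place of PSMB7, lies at chr16:67968407-67970780, minus strand (hg19, NM_002801). It had 17.9, 18.7 and 16.2 CPM with KMT9a siRNA, against 39.8, 38.2 and 40.6 CPM with control siRNA (log2 fold change -1.17 ± 0.072 (SE), adjusted p = 1.41e-08), again with no overlap. PSMB9, which takes the place of PSMB6, had 2, 2 and 9 read ends in the KMT9a siRNA libraries, against 0, 0 and 2 in the control siRNA libraries. Only KMT9a siRNA replicate 3 was above 3 read ends, so no direction was given for this gene. PSMB11, the thymus form of this family, had 4 read ends in control siRNA replicate 1 and 0 in the other 5 libraries.

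The promoters of the genes with opposite changes are shown to let the reader compare them, as 300 bases of RefSeq sequence in GRCh38.p14 from 250 bases before to 50 after the gene start. For PSMB8 the RefSeq table holds 2 starts, 632 bases apart, so both windows are given, at chr6:32844630-32844929 and chr6:32843998-32844297. Because the measured transcript has hg19 positions, the start that belongs to it was not matched. PSMB10 is at chr16:67936801-67937100, and all are read 5′ to 3′ on the minus strand. Capitals mark a match to GAAANNGAA, the core of an interferon response element, or to TTCNNNGAA, the core of a gamma-activated site, on either strand. The PSMB10 promoter holds the first motif, ending 13 bases before the start. The second PSMB8 window holds that motif across its start and the other motif upstream of it. In the first PSMB8 window none of these letters were found, nor CCAAT or TGACNNNGC, which were also searched.
PSMB8: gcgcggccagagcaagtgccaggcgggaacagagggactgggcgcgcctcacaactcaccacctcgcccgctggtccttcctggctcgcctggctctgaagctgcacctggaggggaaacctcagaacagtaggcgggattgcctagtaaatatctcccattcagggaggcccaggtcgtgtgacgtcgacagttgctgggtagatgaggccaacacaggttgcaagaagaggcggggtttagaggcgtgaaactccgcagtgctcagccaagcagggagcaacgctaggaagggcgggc
PSMB8, second start: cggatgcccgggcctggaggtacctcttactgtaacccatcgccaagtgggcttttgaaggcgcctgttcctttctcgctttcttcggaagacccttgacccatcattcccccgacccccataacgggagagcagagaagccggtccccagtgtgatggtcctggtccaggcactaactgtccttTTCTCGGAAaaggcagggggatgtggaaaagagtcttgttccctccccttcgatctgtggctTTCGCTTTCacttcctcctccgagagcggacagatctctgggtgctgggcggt
PSMB10: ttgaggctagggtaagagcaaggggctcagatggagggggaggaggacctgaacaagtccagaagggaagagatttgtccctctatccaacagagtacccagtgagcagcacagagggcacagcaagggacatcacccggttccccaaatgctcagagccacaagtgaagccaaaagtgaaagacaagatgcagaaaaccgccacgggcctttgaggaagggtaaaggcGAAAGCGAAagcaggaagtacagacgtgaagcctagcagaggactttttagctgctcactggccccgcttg

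Per kilobase, immunosubunit transcripts stayed far below their constitutive counterparts in every PC-3M library. PSMB8 amounted to 2.40%, 2.19% and 1.88% of PSMB5 in the KMT9a siRNA libraries, against 0.563%, 0.456% and 0.464% in the control siRNA libraries. The mean log2 ratio, taken without a pseudocount, was 2.13 higher with KMT9a siRNA, with an SD of 0.18 over the KMT9a siRNA libraries and 0.17 over the control siRNA libraries. PSMB10 amounted to 7.09%, 7.16% and 6.48% of PSMB7 with KMT9a siRNA, against 13.86%, 13.48% and 14.04% with control siRNA, a difference of -0.998 in the mean log2 ratio. PSMB8 was also the least abundant of the 45 tested genes per kilobase, as the plot of the catalytic subunits shows at a scale of its own. Together, the summed CPM of PSMB8 and PSMB10 was 22.8, 23.8 and 20.2 CPM with KMT9a siRNA, against 41.7, 39.6 and 42.0 CPM with control siRNA. Because leukocytes carry immunosubunits at high levels, their markers were read in the same libraries. The summed level of 8 leukocyte markers was 56.4 to 69.5 CPM with KMT9a siRNA, against 44.3 to 49.8 CPM with control siRNA. Most of that sum was CD68, at 53.4, 66.8 and 51.9 CPM with KMT9a siRNA, against 43.9, 46.5 and 49.2 CPM with control siRNA, which was called higher, though not with library totals. LYZ, a lysozyme gene of myeloid cells, had 2.10, 2.34 and 3.64 CPM with KMT9a siRNA, against 0.106, 0.148 and 0.141 CPM with control siRNA (log2 fold change 3.95 ± 0.28 (SE), adjusted p = 4.31e-08). PTPRC, the common leukocyte marker, was too low to test, at 0.568, 0.0890 and 0.314 CPM with KMT9a siRNA, against 0.0531, 0.0738 and 0.0354 CPM with control siRNA. The endothelial marker PECAM1 had 2.00, 2.01 and 2.28 CPM with KMT9a siRNA, against 0.548, 0.259 and 0.265 CPM with control siRNA (log2 fold change 2.49 ± 0.28 (SE), adjusted p = 3.45e-06). All KMT9a siRNA libraries were above all control siRNA libraries for CD68, LYZ and PECAM1. PTPRC had 23, 4 and 12 read ends with KMT9a siRNA, against 3, 4 and 2 with control siRNA, so no direction was given for PTPRC. Of the other endothelial markers, VWF was at 0 in all 6 libraries and CDH5 had read ends in only 1 of them. Of the fibroblast markers, DCN was at 0 in all 6 libraries, LUM was at or near 0, and COL1A1 was lower at a log2 fold change of -0.59. Among the leukocyte markers, MS4A1 was at 0 in all 6 libraries and CD3E had read ends in only 1 of them. The part of other cells in the PSMB8 change was not tested.

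**Figure D3:**
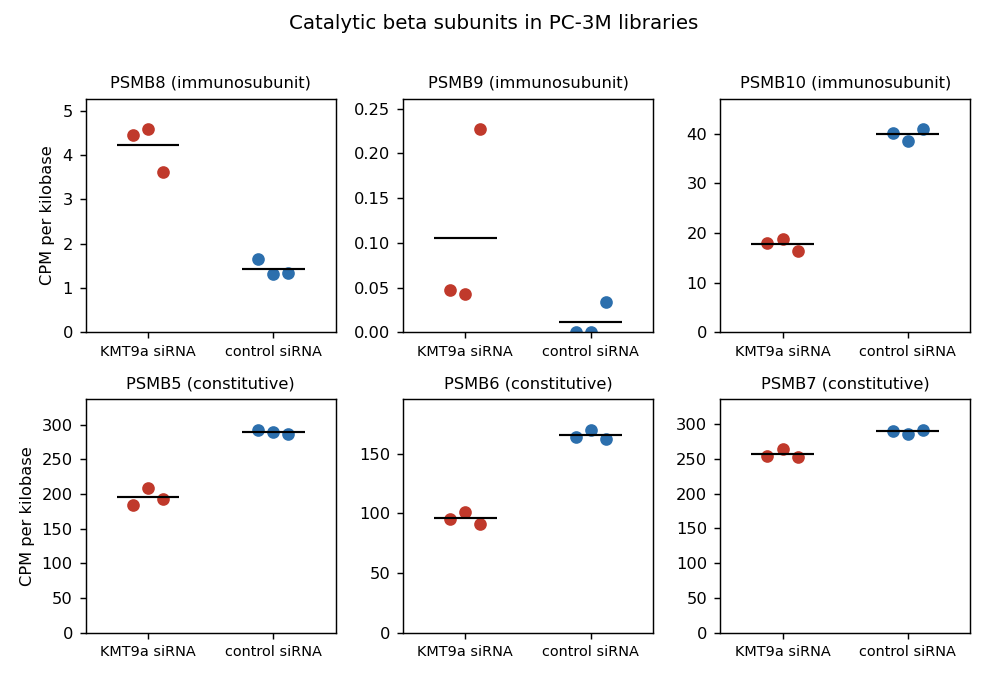
Level in CPM per kilobase of each immunosubunit (top) and of the constitutive protease it replaces (bottom) in 3 KMT9a siRNA and 3 control siRNA libraries of PC-3M cells; points are libraries, lines are group means, and each panel has its own axis starting at 0. PSMB8 is higher and PSMB10, PSMB5, PSMB6 and PSMB7 are lower with KMT9a siRNA, while PSMB9 stays near 0.

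In the base of the 19S particle, the ATPases that unfold substrates were lower in 4 of 6 genes and none was called higher, and the class had a median of -0.25 on the log2 fold change scale. The share called lower was 66.7%, beside 37.2% of all tested genes. PSMC4 had 61.1, 68.7 and 63.6 CPM in the KMT9a siRNA libraries, against 88.0, 87.1 and 85.1 CPM in the control siRNA libraries (log2 fold change -0.43 ± 0.058 (SE), adjusted p = 2.13e-05). PSMC3 had 58.3, 62.8 and 58.2 CPM with KMT9a siRNA, against 74.0, 73.6 and 76.0 CPM with control siRNA (log2 fold change -0.32 ± 0.055 (SE), adjusted p = 0.000182). PSMC1 had 25.9, 22.9 and 25.7 CPM with KMT9a siRNA, against 29.5, 33.2 and 30.3 CPM with control siRNA (log2 fold change -0.32 ± 0.076 (SE), adjusted p = 0.00203). The groups were apart for each of these ATPases, and all changes were under 1.5-fold. PSMC2 was lower at -0.18, and its gene body overlaps SLC26A5 on the other strand. The other transcript row of PSMC2 did not pass, at -0.14. PSMC5 and PSMC6 did not pass, at 0.085 and 0.018.

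The non-ATPase subunits of the 19S particle were lower in 7 of 11 genes, higher in 2, and 2 did not pass, with a median log2 fold change of -0.34. Those shares were 63.6% lower and 18.2% higher, beside 37.2% and 37.3% of all tested genes. PSMD4, a ubiquitin receptor, had 129, 136 and 128 CPM in the KMT9a siRNA libraries, against 223, 220.1 and 219 CPM in the control siRNA libraries (log2 fold change -0.75 ± 0.047 (SE), adjusted p = 1.69e-08). PSMD8, a subunit of the lid, had 78.8, 89.8 and 82.1 CPM with KMT9a siRNA, against 141, 135 and 136 CPM with control siRNA (log2 fold change -0.72 ± 0.058 (SE), adjusted p = 1.70e-07). These were the subunits of the 19S particle lower by at least 1.5-fold, with every KMT9a siRNA library well below every control siRNA library. PSMD14, the enzyme that cuts ubiquitin chains off the substrate, had 98.4, 94.4 and 103 CPM with KMT9a siRNA, against 133, 131 and 132 CPM with control siRNA (log2 fold change -0.42 ± 0.052 (SE), adjusted p = 8.98e-06). The scaffold subunit PSMD1 and the lid subunits PSMD13, PSMD6 and PSMD3 were lower at log2 fold changes of -0.34, -0.37, -0.36 and -0.19. PSMD1 shares 16875 bases of its gene body with HTR2B on the other strand, and HTR2B was itself lower, at -1.59.

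PSMD2, a base subunit that docks shuttle factors, went the other way with 388, 438 and 409.6 CPM in the KMT9a siRNA libraries, against 356, 343 and 346 CPM in the control siRNA libraries (log2 fold change 0.24 ± 0.052 (SE), adjusted p = 0.00104). PSMD12 of the lid had 113, 97.5 and 119 CPM with KMT9a siRNA, against 89.8, 94.2 and 92.8 CPM with control siRNA (log2 fold change 0.24 ± 0.069 (SE), adjusted p = 0.00648). Both calls were lost when libraries were scaled by their totals alone, at log2 fold changes of 0.066 for PSMD2 and 0.070 for PSMD12. PSMD7, the partner of PSMD14, and PSMD11 did not pass, at -0.11 and 0.0016.

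Transcript levels of subunits that occur in equal numbers in the assembled core or 19S particle were uneven in both groups. Across the 14 tested constitutive core subunits, the highest level per kilobase was 10.49, 10.41 and 10.47 times the lowest in the KMT9a siRNA libraries, against 9.71, 9.95 and 9.79 times in the control siRNA libraries. PSMB2 was the lowest in all 6 libraries. Its transcript row was also the longest of these subunits, at 4732 bases. In CPM, without division by length, PSMB2 averaged 140 with control siRNA, above PSMB3 at 80.8. The part of row length in this spread was not tested. PSMB7 was the highest in all 3 KMT9a siRNA libraries and in control siRNA replicate 3, and PSMB5 in control siRNA replicates 1 and 2. Across the 17 subunits of the 19S particle, PSMC1 was the lowest in all 6 libraries, while the highest was PSMD2 in the KMT9a siRNA libraries and PSMD4 in the control siRNA libraries. PSMD2 averaged 143 ± 8.59 CPM per kilobase with KMT9a siRNA and 121 ± 2.34 with control siRNA (SD, n = 3 each). PSMD4 averaged 100.1 ± 3.20 CPM per kilobase with KMT9a siRNA and 168 ± 1.76 with control siRNA (SD, n = 3 each), so the order of these genes changed between the groups.

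**Figure D4:**
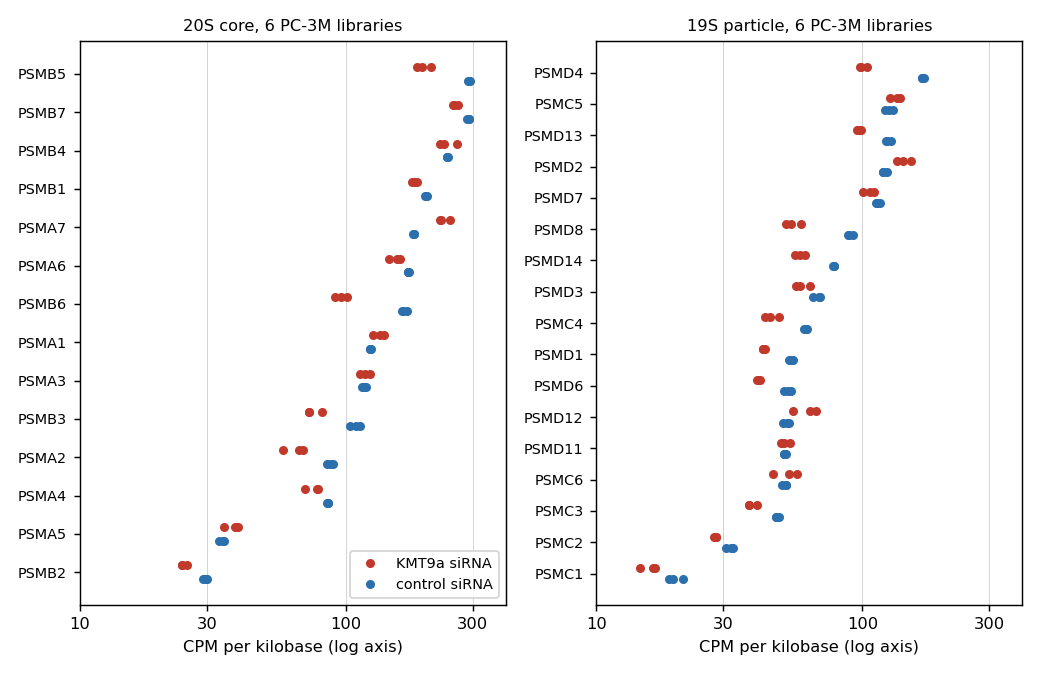
Level in CPM per kilobase (log axis) of the 14 tested constitutive core subunits and the 17 subunits of the 19S particle in each PC-3M library, with KMT9a siRNA points above control siRNA points, ordered by control siRNA mean. PSMB6, PSMB5, PSMD4 and PSMD8 are shifted to lower levels with KMT9a siRNA, and PSMA7 and PSMD2 to higher levels.

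Set side by side, the core and the 19S particle had more genes lower than higher. The constitutive core had 9 genes lower and 1 higher of 14 tested, at a median log2 fold change of -0.17. The 19S particle had 11 lower and 2 higher of 17, at a median of -0.32. The immunosubunits had 1 lower and 1 higher of 2 tested. Called lower were 64.3% of core genes and 64.7% of 19S genes, beside 37.2% of all tested genes. Called higher were 7.14% and 11.8%, beside 37.3% of all tested genes. Within the core, the summed CPM of the beta subunits was 1114, 1208 and 1132 CPM with KMT9a siRNA, against 1441, 1431 and 1429 CPM with control siRNA. That of the alpha subunits was 993, 954 and 1018 CPM with KMT9a siRNA, against 968, 981 and 970.5 CPM with control siRNA, and these groups overlapped. The 19S non-ATPases summed to 1540, 1597 and 1593 CPM with KMT9a siRNA, against 1820, 1796 and 1797 CPM with control siRNA. The difference between the classes was not tested, since the genes of a class are not replicates.

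**Figure D5:**
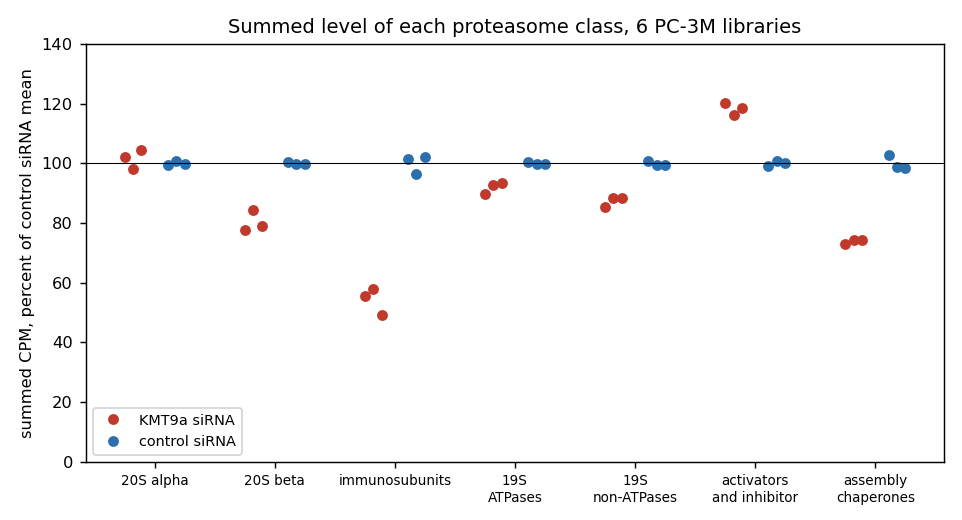
Summed CPM of the tested genes of each class in every PC-3M library, as percent of the class's control siRNA mean; points are libraries. The beta subunits, immunosubunits, both 19S classes and chaperones lie below the control siRNA libraries, the activators and inhibitor above, and the alpha subunits overlap them.

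The activators were the class with most genes higher, 3 of 5 tested, with the inhibitor lower and 1 gene not passing. Those shares were 60% higher and 20% lower, beside 37.3% and 37.2% of all tested genes. PSME4, a nuclear activator known for binding acetylated histones, had the largest rise among the members outside the immunosubunits. It lies at chr2:54091204-54197977, minus strand (hg19, NM_014614) and had 272, 259 and 265 CPM in the KMT9a siRNA libraries, against 149.7, 155 and 155 CPM in the control siRNA libraries (log2 fold change 0.79 ± 0.047 (SE), adjusted p = 9.18e-09). PSME1 had 127, 123 and 119 CPM with KMT9a siRNA, against 102, 104 and 103 CPM with control siRNA (log2 fold change 0.25 ± 0.050 (SE), adjusted p = 0.000494). Its ring partner PSME2 had 68.6, 67.5 and 68.5 CPM with KMT9a siRNA, against 57.4, 58.1 and 59.9 CPM with control siRNA (log2 fold change 0.22 ± 0.052 (SE), adjusted p = 0.00199). The groups did not overlap in any of these activators, but scaled by library totals alone PSME1 and PSME2 fell short of the threshold, at log2 fold changes of 0.081 and 0.048. PSME1 amounted to 127% of PSME2 per kilobase with KMT9a siRNA and 124% with control siRNA, so the pair kept nearly the same ratio. PSME3, the nuclear homologue of that pair, did not pass at 0.041. Per kilobase, PSME4 amounted to 81.5%, 84.8% and 78.7% of PSME3 with KMT9a siRNA, against 47.2%, 48.7% and 50.1% with control siRNA. PSMF1, an inhibitor of the core in purified systems, had 135, 141 and 137 CPM with KMT9a siRNA, against 168, 169 and 169 CPM with control siRNA (log2 fold change -0.29 ± 0.046 (SE), adjusted p = 8.97e-05).

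Assembly chaperones, which guide ring formation and leave the finished particle, included the member lowered most. PSMD10, also called gankyrin, a chaperone of the 19S base, lies at chrX:107327435-107334874, minus strand (hg19, NM_002814). It had 62.0, 60.8 and 64.2 CPM in the KMT9a siRNA libraries, against 149, 141 and 142 CPM in the control siRNA libraries, with every KMT9a siRNA library far below (log2 fold change -1.21 ± 0.052 (SE), adjusted p = 5.07e-10). PSMG1, a member of the chaperone pair that starts the alpha ring, had 21.7, 22.2 and 24.1 CPM with KMT9a siRNA, against 43.5, 40.6 and 39.4 CPM with control siRNA (log2 fold change -0.86 ± 0.070 (SE), adjusted p = 1.80e-07). Its partner PSMG2 had 46.2, 40.3 and 44.5 CPM with KMT9a siRNA, against 40.9, 45.0 and 43.8 CPM with control siRNA, and these groups overlapped (adjusted p = 0.870). PSMG3 was lower at -0.29, and its partner PSMG4 did not pass at -0.15 (adjusted p = 0.0805). The other transcript rows of PSMG4 were called lower, at -0.19 and -0.44. PSMG4 was the 1 tested member whose call differed in the authors' deposited table, at a log2 fold change of -0.19 and an adjusted p of 0.0487. Of the other base chaperones, PSMD9 did not pass at -0.025. PSMD5 had 38.9, 35.4 and 41.4 CPM with KMT9a siRNA, against 34.0, 32.4 and 33.8 CPM with control siRNA (log2 fold change 0.20 ± 0.070 (SE), adjusted p = 0.0185), a call that was lost without control siRNA replicate 2 or 3 or KMT9a siRNA replicate 1 or 3, at 0.14 to 0.21, and with library totals, at 0.031. PSMC3IP, the gene outside the complex, was lower at -0.66 ± 0.093 (SE) with an adjusted p of 3.05e-05.

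The promoters of the member lowered most and of the activator raised most are shown in the same form. PSMD10 is at chrX:108091493-108091792 and PSME4 at chr2:53970944-53971243 of GRCh38.p14, both read 5′ to 3′ on the minus strand. Capitals mark CCAAT on the opposite strand in PSMD10 and TGACNNNGC, the core of an antioxidant response element, on the opposite strand in PSME4.
PSMD10: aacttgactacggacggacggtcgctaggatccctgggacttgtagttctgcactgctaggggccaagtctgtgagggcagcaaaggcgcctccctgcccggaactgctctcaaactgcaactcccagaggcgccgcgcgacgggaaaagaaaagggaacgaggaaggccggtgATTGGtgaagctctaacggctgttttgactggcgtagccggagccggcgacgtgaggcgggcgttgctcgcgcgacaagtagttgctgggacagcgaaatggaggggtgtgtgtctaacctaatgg
PSME4: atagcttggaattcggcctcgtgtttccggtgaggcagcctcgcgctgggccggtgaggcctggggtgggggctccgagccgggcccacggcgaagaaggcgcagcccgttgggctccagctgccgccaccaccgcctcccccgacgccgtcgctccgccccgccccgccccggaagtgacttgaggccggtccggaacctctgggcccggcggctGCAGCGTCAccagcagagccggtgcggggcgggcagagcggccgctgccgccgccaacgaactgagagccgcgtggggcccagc

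Motifs of 4 regulators known for proteasome genes were searched on both strands in the promoters of 42 of the 48 genes, the entries found in the RefSeq table (all but PSMA7, PSMB1, PSMB6, PSMB7, PSMD4 and PSMG3), and overlaps between matches were allowed. CCAAT, bound by the NF-Y complex, was in 45.2% of these promoters, against 35.7% of 27305 promoters of the same length. It was in 12 of the 20 promoters of genes called lower and in 0 of the 7 of genes called higher. Among genes that did not pass, 5 of 12 promoters held it. Of those 7 higher genes, only PSMB8 and PSME4 kept their call with libraries scaled by their totals. TGACNNNGC was in 31.0%, against 13.6% of all promoters. It was in 5 of 20 promoters of genes called lower and in 5 of 7 of genes called higher, namely PSMD12, PSME1, PSME2, PSME4 and PSMD5. Of these higher genes, only PSME4 kept its call with libraries scaled by their totals, so this grouping depends on the TMM scaling. GAAANNGAA was in 16.7%, against 8.29% of all promoters, and TTCNNNGAA, a gamma-activated site, was in 11.9%, against 7.88%. For the 8 of these genes with more than 1 start, as for all genes, the first listed start was used. Over all listed windows, CCAAT was in 39.2% of 51 member windows, against 34.6% of 35116 windows, and TGACNNNGC in 29.4%, against 13.3%. The median GC content was 62% in these promoters and 58.3% in all promoters. A match describes the letters in this window and says nothing of binding, and the share of matches was not tested between the groups of genes.

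Several members share a bidirectional start region with another gene, by the hg19 positions of the table. PSMD10 starts 25 bases from ATG4A, an autophagy protease gene on the other strand, which was lower at -1.503. PSMA2 starts 134 bases from MRPL32, lower at -0.55, and PSMA7 starts 348 bases from SS18L1, higher at 0.46. PSMB8 starts 47 bases from its antisense gene PSMB8-AS1, higher at 1.29, and PSMB9 starts 190 bases from TAP1, higher at 1.25. Of 11 members that start within 1000 bases of a gene on the other strand, 5 were called in the same direction as that gene, including PSMD10, PSMA2, PSMA7 and PSMB8, and 1 in the opposite direction. Both genes were tested in 9 of these pairs, of which 55.6% moved in the same direction, beside 31.5% of 1981 such pairs over all tested genes, with each pair counted from either gene. This count is a description without a test. RNF31, beside PSME2, was the fifth, higher at 0.48, and PSMD5-AS1 was lower at -0.18 while PSMD5 was higher. SIRT3, beside PSMD13, did not pass at -0.038. Reads were not stated to be counted by strand, so where genes overlap, as PSMA3 does with PSMA3-AS1, which was higher at 0.92, their reads cannot be told apart.

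The genes that work with the proteasome moved in both directions, as did all tested genes, of which 37.2% were called lower and 37.3% higher. Of 10 associated and assembly factors without PSM symbols, 6 were lower and 2 higher. PAAF1, another chaperone of the 19S base, had 8.22, 8.23 and 9.502 CPM in the KMT9a siRNA libraries, against 19.2, 20.6 and 19.7 CPM in the control siRNA libraries (log2 fold change -1.20 ± 0.087 (SE), adjusted p = 6.23e-08). POMP, which matures the core, had 60.9, 48.0 and 60.1 CPM with KMT9a siRNA, against 101, 99.4 and 101 CPM with control siRNA (log2 fold change -0.84 ± 0.081 (SE), adjusted p = 9.87e-07). Like PSMD10 and PSMG1, these assembly factors had all KMT9a siRNA libraries below all control siRNA libraries. The deubiquitinase UCHL5 and the ubiquitin ligase UBE3C were lower at -0.72 and -0.32. Of 10 shuttle factors and p97 genes, 4 were lower and 3 higher, with RAD23B and UBQLN1, which carry ubiquitinated proteins to the proteasome, at -0.73 and -0.66. The p97 cofactors NSFL1C and UFD1L were higher at 0.87 and 0.45.

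Of 10 transcription factors known for these genes, 8 were tested, 3 were higher and 2 lower, beside 37.3% and 37.2% of all tested genes. NFE2L1, which raises proteasome genes when the proteasome is inhibited, had 506, 526 and 481 CPM with KMT9a siRNA, against 265, 276 and 284 CPM with control siRNA (log2 fold change 0.87 ± 0.050 (SE), adjusted p = 6.79e-09). Its relative NFE2L2 had 74.6, 76.9 and 80.5 CPM with KMT9a siRNA, against 109, 115 and 114 CPM with control siRNA (log2 fold change -0.54 ± 0.053 (SE), adjusted p = 1.14e-06), a change in the other direction. IRF1, an interferon response factor that acts on immunosubunit genes, had 14.8, 15.0 and 15.0 CPM with KMT9a siRNA, against 5.92, 5.57 and 6.49 CPM with control siRNA (log2 fold change 1.31 ± 0.091 (SE), adjusted p = 3.90e-08). Of the subunits of the CCAAT-binding complex, NFYA was higher at 0.19, NFYB was lower at -0.29, and NFYC did not pass at 0.10. STAT3 is listed at 0 in all 6 libraries, and NLRC5 was too low to test. Of 6 genes for ubiquitin and its activating enzymes, RPS27A and UBA6 were higher at 0.47 and 0.36 and UBB was lower at -0.19, while 3 did not pass. Of the peptide transporter genes beside PSMB8 and PSMB9, TAP1 had 11.8, 11.8 and 8.85 CPM with KMT9a siRNA, against 4.37, 4.31 and 4.81 CPM with control siRNA (log2 fold change 1.25 ± 0.12 (SE), adjusted p = 1.32e-06). TAP2 had 26.2, 28.4 and 24.9 CPM with KMT9a siRNA, against 42.7, 39.2 and 41.7 CPM with control siRNA (log2 fold change -0.64 ± 0.070 (SE), adjusted p = 3.03e-06), so the transporter genes, like the immunosubunits, moved apart.

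In MCF10A cells too few members could be tested for the same description. The MCF10A total per library was 181064 to 255642 read ends over all genes, of which the members had 452 to 671. Of the 49 genes, 28 were listed at 0 in all 6 libraries and 4 were tested among 1049 genes, and limma called none of them, with 0 at an unadjusted p under 0.05. In that comparison 0.477% of all tested genes were called, and N6AMT1 was listed at 0 in all 6 libraries, so its knockdown could not be checked there. PSMB5, at 402, 398 and 393 CPM in the PC-3M control siRNA libraries, had 0, 0 and 2 read ends in those of MCF10A. PSMD14, at 133, 131 and 132 CPM in the former, had 1000, 1038 and 1280 CPM in the latter. The reason for this uneven spread, depth included, was not tested. PSMD14 had 222, 266 and 262 read ends with KMT9a siRNA, against 211, 237 and 297 with control siRNA, at a log2 fold change of 0.31 ± 0.32 (SE). PSME3 had 206, 88 and 292 read ends with KMT9a siRNA, against 191, 178 and 226 with control siRNA, at 0.11 ± 0.26 (SE). PSMC6 and PSMD11 were at 0.14 ± 0.40 (SE) and 0.046 ± 0.29 (SE). The groups overlapped in all 4 genes, and the adjusted p-values were 0.607 or higher. KMT9a siRNA replicate 2 stood apart here too, with a chi-square over degrees of freedom of 17.8 and 25.6 against replicates 1 and 3 and 2.85 between those, and the count of calls was 0 without it. PSMD14 had 1170, 2172 and 994 CPM in the KMT9a siRNA replicates 1 to 3, against 1000, 1038 and 1280 CPM with control siRNA. The part of depth and of that library in these errors was not tested. Control siRNA replicates 1 and 2 differed by less than the sampling noise here (chi-square over degrees of freedom 0.845), and the count of calls was 0 both with the pair as separate samples and with its mean counted as 1 sample.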

How the data were processed

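RNA sequencing libraries of PC-3M and MCF10A cells, 3 with KMT9a siRNA and 3 with control siRNA per line, were analysed from the authors' deposited tables, with groups taken from the sample titles. STAR, HOMER, edgeR and hg19 are named in the submitters' processing notes without versions or roles. The deposited values are a signal per transcript row, scaled by the authors to 1 total per table. All values above 0 (100%) were whole multiples of a step per library, within 0.1 of a step, and these multiples were used as counts of read ends. The authors' deposited log2 fold changes and their p-values are named where used.

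For each gene the row with the highest mean was kept, and 1182 rows without annotation counted as genes of their own. limma 3.58.1 (R 4.3.3) with a mean-variance trend was run on log2(TMM-scaled value + 1) within each table, after edgeR's expression filter at a minimum count of 10 and a total of 15. Fold changes are on that scale, which understates changes of low genes. CPM were taken over the tested genes with TMM scaling by edgeR 4.0.16 and the table's transcript length. Alternatives were DESeq2 1.42.0, edgeR and limma-voom on recovered read ends (edgeR called 5595 genes higher and 5552 lower), other scalings, filters, pseudocounts and transcript rows, a replicate block, and each library left out. The fits were tested on simulated data. A floor of 3 read ends covers counting error only. Values in every library are given for the catalytic subunits and up to 3 genes per direction and class with the largest change, and up to 4 genes of smallest p per pathway list. HTR2B, ATG4A and the other neighbours were named by position. The members and lists were chosen with earlier results of these data known.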

Additional observations from a re-analysis of the deposited data

How the results depend on the processing

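Of the 45 tested members, 29 kept their side of the threshold under all 17 alternative fits (PSMB8 under the 16 that tested it), and 27 of them also kept their direction. PSMC5 and PSMG2, which did not pass, turned sign. edgeR, DESeq2 and limma-voom on recovered read ends, other pseudocounts and DESeq2 size factors changed no member's call. Of 30 other transcript rows tested, 24 had the same call as the row that stood for the gene. The rest belonged to PSMA1, PSMA5, PSMC2 and PSMG4. The fold limit lowered the counts to 3436 genes higher and 3308 lower, with 2 members higher and 6 lower. Library totals, which moved the median of all genes to -0.17, gave 3 members higher. Under those totals the class medians were -0.16 for the alpha subunits, -0.45 for the beta subunits, 0.010 for the immunosubunits, -0.42 for the 19S ATPases, -0.51 for the 19S non-ATPases, 0.048 for the activators and -0.33 for the chaperones. PSMA3, PSMB4 and PSMD11, which did not pass, turned to -0.16, -0.17 and -0.17. With a mean of at least 5 CPM, PSMB8 was not tested, and the immunosubunit median was -1.16 from PSMB10 alone. Leaving out 1 library gave medians of -0.032 to 0.048 for the alpha subunits, turned negative without KMT9a siRNA replicate 3 and, at -0.00054, without control siRNA replicate 1, -0.27 to -0.22 for the 19S ATPases, -0.36 to -0.33 for the 19S non-ATPases, 0.20 to 0.24 for the activators and -0.20 to -0.10 for the chaperones. Without KMT9a siRNA replicate 2, PSMA1, PSMA5, PSMC6 and PSME3 were called higher and PSMG4 lower. These shifts' cause was not tested. Same-numbered PC-3M libraries correlated at -0.15, -0.23 and -0.10 in their deviations from group means, and libraries of unlike number at -0.091 to 0.23. Deviations within a group of 3 are bound to each other, so these values cannot show whether replicate numbers pair the libraries. With the replicate block 8 members were called higher and 25 lower. PSMB9, PSMB11 and most members in MCF10A had too few read ends to be tested.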
